A study of Homo sapiens with 12 samples.

Results

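PC-3, a human prostate cancer line, was compared with HBC4, a human breast cancer line, and MKN74, a human gastric cancer line, to describe which genes set PC-3 apart whatever it had been treated with. The PC-3 samples are the 4 arrays that the labels give to that line, of 12 arrays in the series, and the other 8 arrays (4 HBC4 and 4 MKN74) served as the reference. Cells of each line were reverse transfected using Lipofectamine RNAiMAX, which carried no oligonucleotide (reagent alone), (uuaccc)4 or (uuaggg)4, both made of RNA, or AS1411, made of DNA. The last 2 can fold into G-quadruplexes (G4), stacked 4-stranded guanine structures, while reagent alone and (uuaccc)4 were taken as controls. A well of 300000 cells received 100 pmol of oligonucleotide, and cells grew on a low-adhesion surface for 72 hours before harvest. Each line and treatment had 1 array, no further cultures are named, and every PC-3 value comes from a single established line, so a difference is a property of these 3 lines and not of their tissues of origin.

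PC-3 was established from a bone metastasis of a prostate carcinoma and grows without androgen. A luminal prostate cell is an epithelial cell: its identity is set by factors such as FOXA1 and HOXB13, it secretes kallikreins under androgen control, and it is held to its neighbours by E-cadherin, which alpha-catenin ties to actin. Carcinoma lines differ in how much of this epithelial programme they keep and in how far they carry mesenchymal genes, which code for matrix, migration and the repressors of E-cadherin. PC-3 is known for a deletion in the alpha-catenin gene and for lacking STAT3.

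Values are log2 expression relative to the median of the same probe set over the 12 arrays, so they show differences between arrays but neither a level nor whether a gene was off. The PC-3 difference is the mean of the 4 PC-3 arrays minus the mean of the 2 other line means, fitted with limma with treatment as a block. It was computed for 41091 probe sets that name 1 gene, of 54675 in the table, and 19775 genes were covered. A gene is shown by its probe set with the largest SD over the arrays, a choice that favours differences between lines. A gene is called set apart when that probe set passed an adjusted p of 0.05 and when, in each of the 4 treatments, the PC-3 array lay at least 1 log2 unit (2-fold) above both other lines, or below both. Values on single arrays are given in the order reagent alone, (uuaccc)4, (uuaggg)4 and AS1411. Arrays of the same line correlated at 0.872 to 0.971 and arrays of different lines at -0.278 to -0.170, the latter lowered by the centring, and no array stood apart from its line. In bulk RNA, a lower value from fewer cells with a transcript and one from less of it per cell cannot be told apart.

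Between these lines, a difference past the threshold was the rule and not the exception. Of the 41091 probe sets, 23438 (57%) passed, 10681 higher and 12757 lower in PC-3. On the shown probe sets, 29.1% of genes passed as higher and 34.6% as lower, and the median difference over all genes was -0.08, with quartiles of -0.38 and 0.37. Against HBC4 alone 52% of probe sets passed, and against MKN74 alone 56.9%. The set-apart rule was narrower: 1275 genes (6.45%) were set apart higher in PC-3 and 683 (3.45%) lower. List counts below are to be read against these shares, and against 29.1% and 34.6% for genes that passed as higher or lower. By the same rule HBC4 had 652 higher and 434 lower, and MKN74 had 907 higher and 893 lower. Among the genes set apart higher in PC-3 the median size was 2.51 log2 units and 251 reached 16-fold. Among those set apart lower the median was 2.23 and 103 reached 16-fold. The rule requires the distance in each treatment, which favours genes whose difference is steady. The median SD of the difference over the 4 treatments was 0.20 for genes set apart higher and 0.21 for those lower. This SD was above 0.5 for 46 of the higher genes and 35 of the lower ones. At the 1-unit limit, ARHGEF6 lay just inside with a smallest distance of 1.001 and DNAJB4 just outside with 0.999. On the lower side FAM120AOS lay just inside with 1.003 and NLN just outside with 1.000.

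**Figure D1:**
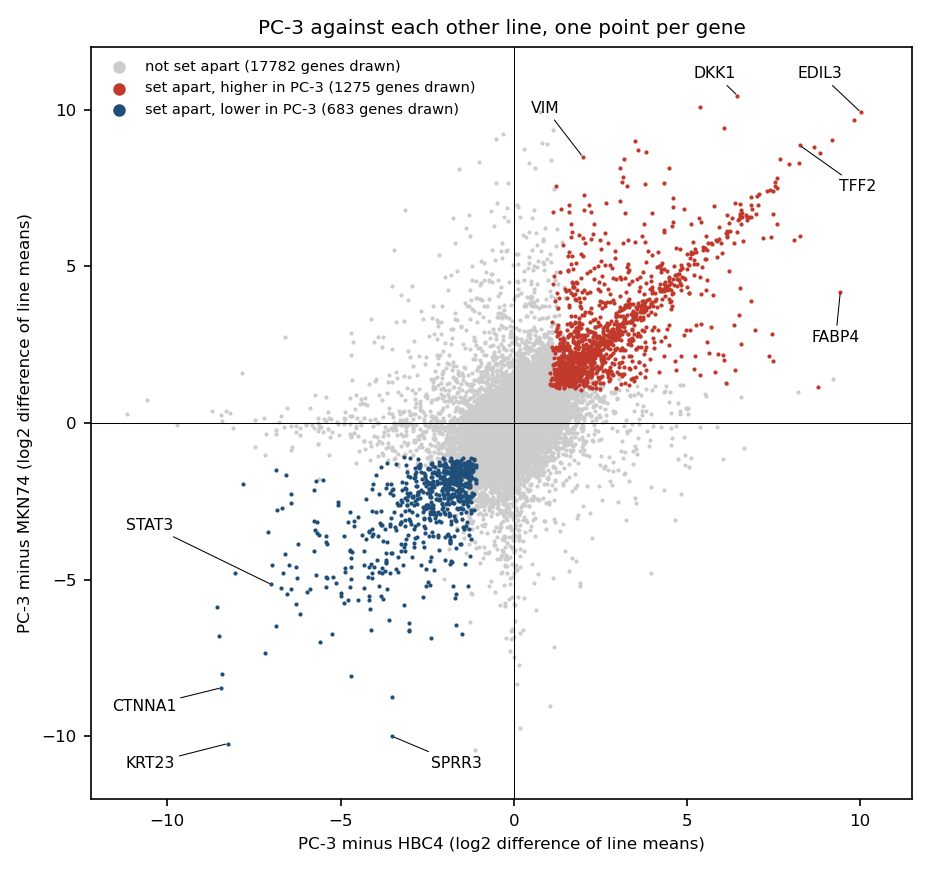
Each point is a gene, placed by its PC-3 minus HBC4 difference (x axis, log2) and its PC-3 minus MKN74 difference (y axis, log2), with genes set apart higher in PC-3 in red, lower in blue and all others in grey. EDIL3, TFF2 and CTNNA1 lie near the diagonal, with about the same distance to both lines, while VIM lies 1.99 above HBC4 and 8.50 above MKN74.

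EDIL3, a secreted integrin ligand, had the largest difference of any gene set apart higher. Its PC-3 arrays read 9.91, 9.93, 9.71 and 9.88, against -0.48, -0.11, 0.01 and -0.07 in HBC4 and 0.25, -0.01, -0.40 and -0.09 in MKN74. The PC-3 arrays were all high, the other 8 lay near their common median, and the difference was 9.97 (SE 0.12, adjusted p = 1.04e-13). NEFL, the light neurofilament chain, gave a similar picture: PC-3 read 9.71, 9.67, 9.66 and 9.73, and no other array exceeded 0.31. Its difference was 9.74 (SE 0.08, adjusted p = 1.33e-14). CTHRC1, a secreted protein of repairing matrix, stood 9.11 higher, GLUL, the glutamine synthetase, 8.73 higher and PYGL, the liver glycogen phosphorylase, 7.74 higher. RGS4, which shortens G-protein signals, was 7.61 higher, and SERPIND1, the thrombin inhibitor heparin cofactor, 7.55 higher.

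At the other end stood KRT23, an epithelial keratin. It read -7.90, -7.69, -8.99 and -8.66 in PC-3, 0.27, 0.21, -0.21 and -0.50 in HBC4, and 2.10, 2.13, 1.85 and 1.60 in MKN74. PC-3 was far below both lines on every array, with a difference of -9.24 (SE 0.12, adjusted p = 1.9e-13). VGLL1, a cofactor of TEAD factors, showed -8.23 on the shown probe set, but its other probe sets gave -3.85 and -0.17. The serine proteases KLK6 (-7.64) and KLK8 (-6.14), the small GTPase RAB25 (-7.26), the long noncoding RNAs UCA1 (-7.21) and CRNDE (-6.42) and the death-associated kinase DAPK1 (-6.68) followed. ZNF140, a zinc finger repressor, was -6.30.

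**Figure D2:**
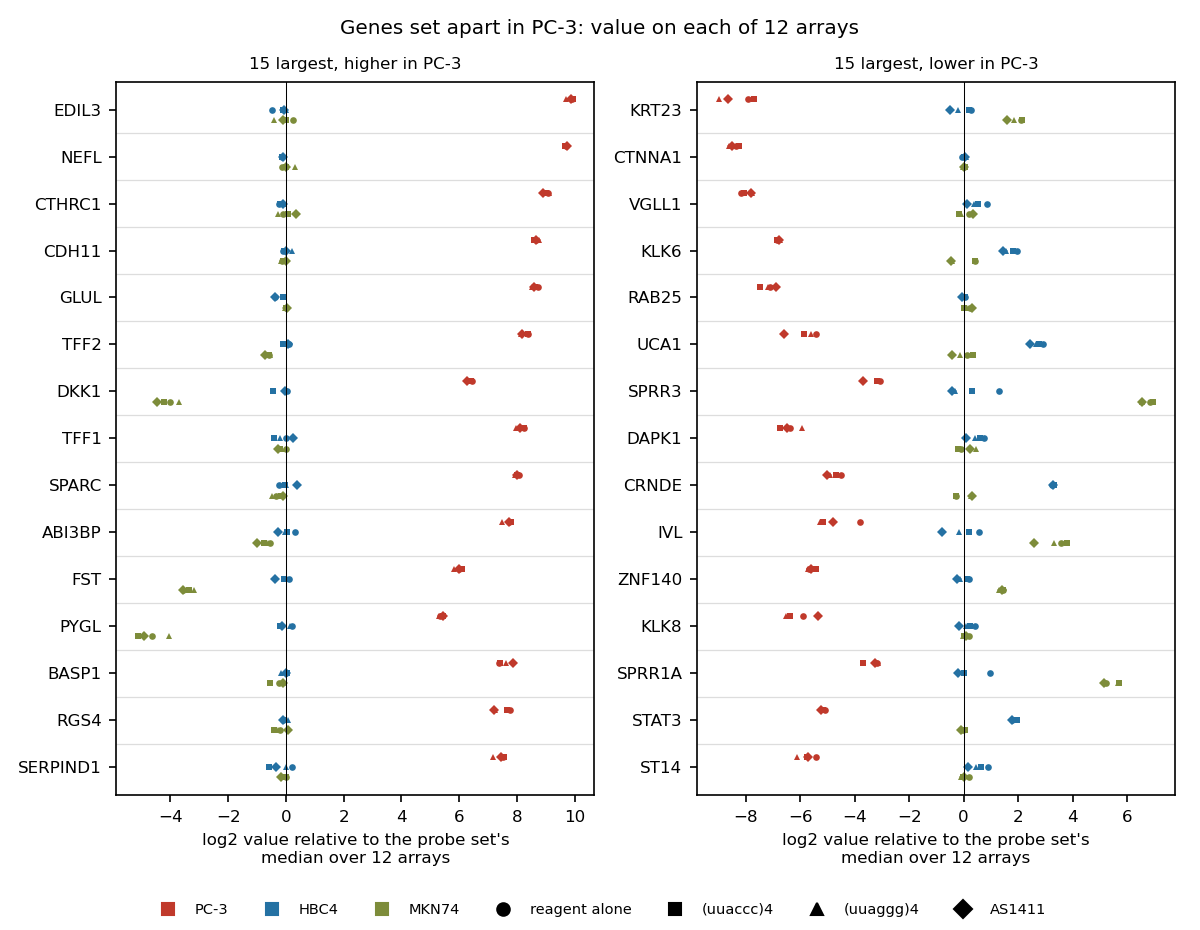
The 15 genes set apart with the largest differences in each direction, with the log2 value relative to the probe set's median on the x axis, a colour for each line and a marker shape for each treatment. In every row the 4 PC-3 arrays lie together. The rule that picked these genes requires them to lie away from HBC4 and MKN74 in each treatment. DKK1 and SPRR3 are among the genes that also separate HBC4 from MKN74.

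STAT3, the transcription factor that carries signals of interleukin-6 family cytokines, was among the 15 largest lower genes. PC-3 read -5.09, -5.17, -5.19 and -5.22, HBC4 1.76, 1.96, 1.84 and 1.77, and MKN74 -0.03, 0.05, 0.03 and -0.10. The 3 lines did not overlap, PC-3 was lowest, and the difference was -6.08 (SE 0.06, adjusted p = 5.2e-14). All 4 of its probe sets were lower in PC-3, at -6.08, -3.86, -3.75 and -1.06.

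The prostate label was checked against its markers. Of 21 measured luminal prostate markers, 5 were set apart higher (against 6.45% of all genes), 3 lower (against 3.45%) and 13 not, with a list median of -0.10. HOXB13, the homeobox factor of the posterior body and prostate, read 4.76, 4.58, 4.88 and 4.83 in PC-3, -0.07, 0.06, 0.00 and -0.37 in HBC4, and 0.00, -0.67, -0.00 and -0.13 in MKN74. The PC-3 arrays were 4.91 higher (SE 0.12, adjusted p = 1.15e-11) and did not overlap with any other. PRAC1, a small nuclear protein made in prostate, rectum and distal colon from a gene beside HOXB13, read 7.0, 7.06, 7.39 and 7.47, with no other array above 0.10, and was 7.43 higher. FOXA1, the pioneer factor of prostate and breast luminal cells, read 5.56, 6.11, 5.81 and 5.46 in PC-3 and between -0.35 and 0.13 elsewhere, a difference of 5.87 (SE 0.10, adjusted p = 9.64e-13). The metalloreductase-family surface proteins STEAP1 (5.43) and STEAP2 (4.33) and the prostate-derived ETS factor SPDEF (3.51) were set apart higher too, though only 3 of the 5 SPDEF probe sets shared that sign.

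KLK3, which codes for prostate-specific antigen, read -0.52, -0.02, -0.09 and -0.43 in PC-3, -0.02, 0.49, 0.09 and 0.74 in HBC4, and 0.13, 0.11, -0.02 and 0.02 in MKN74. These ranges overlapped and the difference of -0.46 was small, although it passed the threshold (SE 0.13, adjusted p = 0.00886); it did not pass with the probe sets of the gene averaged (-0.16). STEAP4 (-4.81), PSCA, the prostate stem cell antigen (-3.85), and PMEPA1, a feedback inhibitor of TGF-beta signals (-2.55), were set apart lower. Of 16 measured androgen response genes, FKBP5, a cochaperone of steroid receptors, was set apart higher (2.86), STEAP4 and CENPN (-1.84) lower, and 13 were not set apart. Among the 16, 9 passed as higher (against 29.1% of all genes) and 5 as lower (against 34.6%), with a median of 0.81. Of 13 basal prostate markers none was set apart higher, and KRT14 (-4.13) and TRIM29 (-3.80) were lower, with a median of -0.10. Of 11 measured neuroendocrine markers only ENO2, the neuronal enolase, was set apart (2.40), and 3 passed as higher and 1 as lower, with a median of -0.10. SCG2 (1.85) and SCG5 (1.81) passed as higher without being set apart. NCAM1 stood at -3.75 from the mean of the other lines, with 0.17 as its smallest distance below the nearer line.

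Several genes of gastric mucosa were set apart higher in PC-3, although MKN74 is the gastric line. Of 15 measured gastric markers 6 were set apart higher (against 6.45% of all genes) and none lower, with a median of 0.40. TFF1, a trefoil peptide of gastric surface mucus and of oestrogen-responsive breast cells, read 8.24, 8.26, 7.97 and 8.11 in PC-3, 0.00, -0.41, -0.20 and 0.24 in HBC4, and -0.00, -0.19, -0.12 and -0.29 in MKN74. TFF2, the trefoil peptide of gastric gland mucus, read 8.38, 8.38, 8.13 and 8.17 in PC-3, 0.12, -0.09, -0.07 and 0.07 in HBC4, and -0.57, -0.57, -0.54 and -0.71 in MKN74. For both peptides the PC-3 arrays formed a high group and the other 8 arrays a low one. The differences were 8.27 for TFF1 (SE 0.11, adjusted p = 1.6e-13) and 8.56 for TFF2 (SE 0.07, adjusted p = 1.33e-14). ANXA10, a gastric annexin (7.02), VSIG1, a gastric junction protein (5.29), the endoderm factor FOXA2 (2.93) and the surface mucin MUC5AC (2.39) were the other 4. The gastric markers MUC6 (-0.14), PGC (0.40) and CTSE (-0.17) were not set apart, and GATA6, at 3.56 against the mean of both lines, stood 0.91 above HBC4 and 6.21 above MKN74.

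Of 17 measured intestinal markers, TFF3 (5.73), the carcinoembryonic antigen CEACAM5 (5.05) and KRT20 (3.71) were set apart higher and none lower, with a median of -0.02. CDX2, the intestinal master factor, stood at -0.84 and was not set apart. Of 25 mucins, trefoil factors and related secretory genes, 9 were set apart higher (against 6.45% of all genes) and none lower (against 3.45%), with a median of -0.03. In this list 11 passed the threshold as higher (against 29.1% of all genes) and 9 as lower (against 34.6%). AGR2, the disulphide isomerase that folds mucins, was 6.24 higher, with 3.81 to HBC4 and 8.66 to MKN74. MUC16 (-3.70) and LCN2 (-3.61) had the largest negative values of that list and were not set apart, since their smallest distances below the nearer line were 0.86 and 0.05.

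Of 20 measured breast luminal markers, TFF1 alone was set apart higher and 3 lower, with a median of -0.14. GATA3, the factor of luminal breast and other epithelia, read -5.25, -5.26, -5.16 and -5.17 in PC-3, 0.41, 0.37, 0.15 and -0.07 in HBC4, and 0.06, -0.04, 0.04 and 0.06 in MKN74. PC-3 was low on every array and the 2 other lines overlapped, with a difference of -5.33 (SE 0.09, adjusted p = 7.8e-13), and all 3 probe sets lay between -5.33 and -4.27. ESR1, the oestrogen receptor, stood at -3.40 against HBC4 and -0.21 against MKN74, so that it marked HBC4 rather than PC-3. Of 38 measured lineage transcription factors, FOXA1, FOXA2, PPARG (3.08), SIX4 (2.44) and TBX2 (1.83) were set apart higher and GATA3 lower, with a median of -0.01.

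Of 22 measured epithelial regulators and surface genes, 13 were set apart lower (against 3.45% of all genes), and SPDEF alone higher, with a median of -2.92. RAB25, which recycles membrane proteins in epithelia, read -7.12, -7.48, -7.19 and -6.90 in PC-3, between -0.05 and 0.06 in HBC4 and between 0.03 and 0.29 in MKN74. ESRP1, the epithelial splicing regulator, read -3.87, -3.70, -3.46 and -3.77 in PC-3, -0.00, -0.02, 0.00 and 0.08 in HBC4, and 0.90, 0.96, 1.23 and 1.04 in MKN74. GRHL2, the grainyhead factor that opens epithelial enhancers, read -3.16, -2.92, -3.06 and -3.36 in PC-3, -0.04, 0.04, -0.10 and 0.11 in HBC4, and 0.64, 0.85, 0.88 and 0.54 in MKN74. In each of these the PC-3 arrays were lowest and did not overlap with either line, with differences of -7.26, -4.22 and -3.49. OVOL1, a repressor of mesenchymal genes (-4.94), GRHL1 (-4.29), and the membrane serine proteases ST14 (-6.03) and PRSS8 (-5.58) followed. EPCAM, an epithelial adhesion molecule, read -2.86, -2.80, -2.58 and -2.59 in PC-3 and between -0.01 and 0.38 elsewhere, a difference of -2.89 (SE 0.08, adjusted p = 3.42e-11). ELF5 (-2.95), OVOL2 (-1.47) and EHF (-1.0) lay below the mean of both lines without being set apart.

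Cell junction genes were divided. CTNNA1, alpha-catenin, read -8.36, -8.24, -8.63 and -8.49 in PC-3, -0.05, 0.01, 0.07 and 0.05 in HBC4, and 0.03, 0.05, -0.01 and 0.02 in MKN74. The PC-3 arrays stood alone and the other 8 arrays lay within -0.05 to 0.07, with a difference of -8.45 (SE 0.08, adjusted p = 1.64e-14). The 5 CTNNA1 probe sets were all lower in PC-3, at -8.45, -7.39, -5.89, -2.45 and -0.47, and the smallest belonged to the only design without an x or s suffix, which marks probes that can match other transcripts. CDH1, E-cadherin, read -1.58, -1.88, -1.39 and -1.45 in PC-3, 1.61, 0.91, 1.38 and 1.09 in HBC4, and -0.05, 0.08, -0.07 and 0.05 in MKN74. The 3 lines did not overlap and PC-3 was lowest, at -2.82 from HBC4 and -1.57 from MKN74 (difference -2.20, SE 0.11, adjusted p = 8.95e-09). Of 20 adherens junction genes 6 were set apart lower, among them JUP, plakoglobin (-3.12), NECTIN4 (-4.47) and AFDN, afadin (-2.10), and 4 higher, with a median of -1.06. The 4 higher genes were CDH11 (8.73), CDH2 (4.6), NECTIN3 (5.58) and VCL, vinculin (2.59). Leaving out probe sets with an x or s suffix reduced the 6 lower genes to 3. Of 18 tight junction genes 6 were set apart lower, with the tetraspan protein MARVELD3 (-4.65), CLDN7 (-4.40) and PATJ (-2.65) among them. CLDN11 was set apart higher (3.72), and the median was -1.17.

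Mesenchymal genes leaned the other way. Of 30 measured, 11 were set apart higher (against 6.45% of all genes) and TPM1 (-2.62) lower (against 3.45%). The threshold was passed by 23 as higher (against 29.1%) and by 5 as lower (against 34.6%), and the median was 2.18. ZEB1, a repressor of E-cadherin, read 5.82, 5.81, 5.67 and 5.66 in PC-3, -0.75, -0.66, -0.51 and -0.53 in HBC4, and 0.40, 0.32, -0.32 and -0.40 in MKN74. SNAI2, the repressor SLUG, read 5.93, 6.11, 5.96 and 6.01 in PC-3, 0.07, -0.50, -0.13 and -0.07 in HBC4, and -0.12, 0.25, -0.10 and -0.30 in MKN74. For both repressors the PC-3 arrays were more than 5 units above every other array, with differences of 6.05 (SE 0.13, adjusted p = 6.24e-12) and 6.11 (SE 0.12, adjusted p = 3.08e-12). The other ZEB1 probe sets gave smaller differences of 0.76, 1.79 and 3.74. SPARC, a matrix-binding glycoprotein, read 8.08, 8.0, 7.92 and 7.99 in PC-3 and between -0.47 and 0.39 elsewhere, a difference of 8.11. CDH11, the mesenchymal and osteoblast cadherin, read 8.68, 8.61, 8.78 and 8.68 in PC-3 and between -0.18 and 0.22 elsewhere, a difference of 8.73, and its 4 probe sets gave 1.85, 3.54, 6.48 and 8.73.

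Other mesenchymal genes separated all 3 lines. VIM, vimentin, read 2.0, 2.03, 2.01 and 1.99 in PC-3, 0.14, -0.23, 0.29 and -0.14 in HBC4, and -6.18, -6.75, -6.58 and -6.46 in MKN74. PC-3 was highest, but the gap was 1.99 to HBC4 and 8.50 to MKN74. AXL, a receptor tyrosine kinase of mesenchymal cells, read 2.71, 2.58, 2.55 and 2.47 in PC-3, -2.75, -2.91, -3.04 and -3.37 in HBC4, and 0.28, 0.28, -0.28 and -0.31 in MKN74, so that HBC4 was the lowest line. FSTL1, a secreted BMP modulator, was 6.0 higher and MSN, moesin, 4.39 higher. CD44 (3.26) and TGFBI (-3.94) were not set apart: CD44 stood at -1.59 from HBC4 and 8.10 from MKN74, and TGFBI at -8.20 from HBC4 and 0.32 from MKN74.

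**Figure D3:**
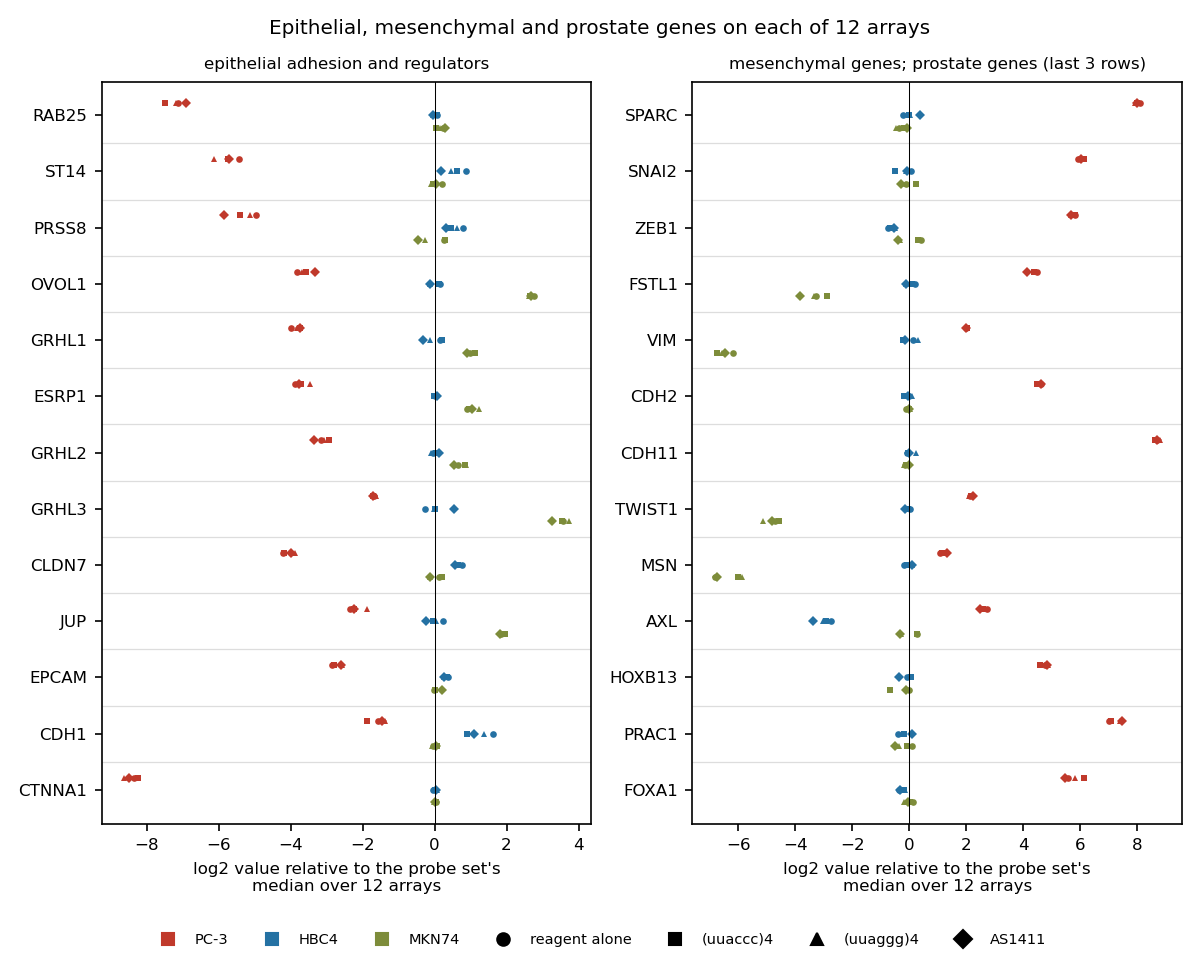
Log2 value relative to the probe set's median (x axis) on each of the 12 arrays for epithelial genes (left) and mesenchymal and prostate genes (right), with a colour for each line and a marker shape for each treatment. The genes drawn were chosen among those set apart, so PC-3 lies lowest in every row on the left and highest in every row on the right. In OVOL1, GRHL3, VIM and MSN, for example, the 2 other lines are also well apart.

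Markers of non-epithelial cell types were measured beside the mesenchymal genes, and their part in these differences was not tested. Centred values give no summed level of such a list. Of 12 fibroblast and stroma markers, COL6A3 (5.50) and COL3A1 (3.30) were set apart higher, and the list median was -0.13. COL3A1 had a probe set at -0.29. The stromal genes LUM (-0.20), DCN (-0.06), PDGFRB (0.13) and THY1 (-0.37) were not set apart. Neither were COL1A1 (1.88), ACTA2 (-0.99) and POSTN (-0.56). Of the 12 markers 4 passed the threshold as higher (against 29.1% of all genes) and 5 as lower (against 34.6%). Of 8 endothelial markers PECAM1 (3.79) was set apart higher while ENG (-2.31), VWF (-0.40) and CDH5 (-0.38) were not, and 1 passed as higher and 4 as lower. Of 8 leukocyte markers LCP1, plastin-2 (1.88), was set apart higher while CORO1A (-1.44), CD14 (-1.31), PTPRC (-0.10) and CD3E (-0.03) were not. In this list too 1 passed as higher and 4 as lower.

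Squamous differentiation builds the cornified layer of skin and the lining of the mouth. Of 13 measured squamous markers 7 were set apart lower (against 3.45% of all genes) and PKP1, plakophilin-1 (4.64), higher (against 6.45%), 9 passed as lower and 3 as higher, with a median of -4.71, the lowest median of the lists of 10 or more measured genes. IVL, involucrin, read -3.81, -5.17, -5.27 and -4.80 in PC-3, 0.58, 0.18, -0.18 and -0.78 in HBC4, and 3.56, 3.78, 3.33 and 2.57 in MKN74. SPRR1A, a small proline-rich envelope protein, read -3.18, -3.68, -3.15 and -3.25 in PC-3, 0.96, 0.00, -0.00 and -0.22 in HBC4, and 5.23, 5.69, 5.67 and 5.14 in MKN74. In both genes the 3 lines did not overlap, MKN74 was highest and PC-3 lowest, with differences of -6.39 (SE 0.20, adjusted p = 1.18e-10) and -6.12 (SE 0.18, adjusted p = 7.96e-11). SPRR3 (-6.75), the desmosomal cadherin DSG3 (-5.71), KRT16 (-5.61), KRT13 (-4.71) and KRT14 (-4.13) were the other 5. Of 15 measured keratins 6 were set apart lower (against 3.45% of all genes) and 2 higher (against 6.45%), KRT75 (4.22) and KRT20 (3.71). Among the 15, 10 passed as lower (against 34.6%) and 4 as higher (against 29.1%). The simple-epithelium pair KRT8 and KRT18 stood at -2.70 and -1.39, of which KRT8 was set apart. Without probe sets of x or s suffix, 3 keratins were set apart lower.

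The promoters of some of these genes are shown because the lower squamous genes and the higher protease and chemokine genes both include known targets of AP-1, the FOS and JUN factor. Each line gives 120 bases of the RefSeq sequence upstream of the transcript start (GRCh38.p14), 5′ to 3′ on the gene's strand, with the AP-1 motif TGANTCA in capitals.
IVL (chr1:152908363-152908482, plus strand): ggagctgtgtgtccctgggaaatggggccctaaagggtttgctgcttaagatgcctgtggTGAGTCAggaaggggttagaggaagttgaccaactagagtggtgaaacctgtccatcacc
SPRR1A (chr1:152983913-152984032, plus strand): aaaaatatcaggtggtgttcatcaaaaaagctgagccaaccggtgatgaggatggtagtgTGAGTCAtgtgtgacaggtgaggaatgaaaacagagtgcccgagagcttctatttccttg
SPRR3 (chr1:153001519-153001638, plus strand): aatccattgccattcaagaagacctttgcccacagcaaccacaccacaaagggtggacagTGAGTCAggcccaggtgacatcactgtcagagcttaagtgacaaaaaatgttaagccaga
MMP10 (chr11:102780636-102780755, minus strand): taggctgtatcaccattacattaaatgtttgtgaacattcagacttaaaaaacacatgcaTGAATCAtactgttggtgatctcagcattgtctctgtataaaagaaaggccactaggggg
CXCL8 (chr4:73740372-73740491, plus strand): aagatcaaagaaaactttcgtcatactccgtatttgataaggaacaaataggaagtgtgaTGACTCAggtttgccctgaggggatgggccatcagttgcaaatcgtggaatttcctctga
The motif lies 116, 101 and 163 bases upstream of the start in IVL, SPRR1A and SPRR3, and 60 and 130 bases upstream in MMP10 and CXCL8. A match is a description of the letters and not a bound site. All 5 windows shown hold the motif, so they do not tell how common it is among such genes. Both strands of the 250 bases before and 50 after each start were searched. The motif was in 4.85% of 1030 windows of genes set apart higher, in 5.56% of 540 windows of genes set apart lower, and in 5.83% of 15382 windows of all genes compared. Other motifs were counted too, without a test. In the same order, the GATA motif AGATAA was in 7.96%, 3.89% and 7.51% of windows, and the TATA box TATAAA in 9.22%, 5.93% and 8.76%. The median share of C and G was 64.0%, 65.0% and 63.0% in these sets. Of 20 measured AP-1, ATF and ETS factors, ETV1 (3.94), FLI1 (2.70) and FOSL1 (1.5) were set apart higher, EGR1 (-2.70) and ELK3 (-2.05) lower, and the median was 0.16. FLI1 rested on 2 of 6 probe sets of the same sign.

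Proteases of the cell surface and their inhibitors moved in both directions. Of 28 measured genes 9 were set apart higher (against 6.45% of all genes) and 4 lower (against 3.45%), with a median of 0.14. PLAU, the urokinase plasminogen activator, read 7.45, 7.25, 7.60 and 7.34 in PC-3 and between -0.33 and 0.03 elsewhere, a difference of 7.54 (SE 0.09, adjusted p = 1.07e-13). MMP10, stromelysin-2, read 3.90, 4.08, 3.98 and 3.93 in PC-3, -2.04, -1.28, -2.16 and -1.66 in HBC4, and 0.13, 0.07, -0.07 and -0.56 in MKN74, and was 4.92 higher. Both proteases were highest in PC-3 with no overlap. Inhibitors were higher as well: TFPI2 by 7.12 and TFPI, which blocks the tissue factor pathway, by 6.32, while F3, tissue factor itself, was lower (-4.16). ADAMTS1 (7.20) was higher, and the cathepsin CTSV (-5.26), ADAM10 (-1.83) and SERPINB5, maspin (-1.57), were lower. Of 21 integrin and laminin genes ITGA1 (5.30), LAMB2 (1.60), LAMA5 (1.49) and ITGB1 (1.44) were set apart higher and ITGB8 (-1.94) lower, but after quantile normalization the 4 higher genes became 1.

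Among 25 inflammatory cytokine and chemokine genes 5 were set apart higher (against 6.45% of all genes) and 2 lower (against 3.45%), with a median of 0.48. IL1B, interleukin-1 beta, read 6.14, 6.32, 5.68 and 5.78 in PC-3, -0.31, -0.16, -0.08 and -0.13 in HBC4, and 0.20, -0.15, 0.06 and -0.06 in MKN74. It was 6.06 higher (SE 0.12, adjusted p = 2.6e-12) with no overlap. CXCL8, interleukin-8, read 2.46, 2.83, 2.04 and 1.85 in PC-3, 0.07, -0.22, 0.05 and -0.39 in HBC4, and -0.53, -0.05, -0.92 and -0.46 in MKN74, and was 2.60 higher. The alarmin IL33 (3.62), CXCL1 (2.91) and IL6 (1.89) were the other 3, and PTGES, the prostaglandin E synthase (-2.60), and IL18 (-1.25) were lower. PTGS2, cyclooxygenase-2, stood at 6.65 from HBC4 and -0.81 from MKN74, and so was not set apart.

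Of 30 TGF-beta and BMP genes 7 were set apart higher (against 6.45% of all genes) and BMP2 (-2.34) lower (against 3.45%), with a median of 0.62. FST, follistatin, which binds activin, was 7.73 higher, LTBP1, which stores latent TGF-beta, 5.07 higher, NOG, the BMP antagonist noggin, 3.67 higher, and the receptor BMPR1B 3.48 higher. BMP7 was at -4.11 but marked MKN74: PC-3 stood at -8.32 from MKN74 and 0.10 from HBC4. Of 36 WNT pathway genes 7 were set apart higher (against 6.45% of all genes) and 4 lower (against 3.45%), with a median of -0.11. DKK1, the secreted WNT antagonist, read 6.45, 6.42, 6.30 and 6.26 in PC-3, 0.04, -0.45, 0.05 and -0.04 in HBC4, and -4.01, -4.21, -3.69 and -4.46 in MKN74. The 3 lines were separate, PC-3 was highest, and the difference was 8.45 (SE 0.11, adjusted p = 1.92e-13). WNT5A, a ligand of the beta-catenin-independent branch (4.28), and the receptors FZD4 (3.31) and FZD2 (2.13) were higher, and LEF1, a nuclear partner of beta-catenin (-3.91), ZNRF3 (-2.75), FZD7 (-2.19) and WNT11 (-2.11) were lower. SFRP1, another secreted WNT antagonist, had the most negative value of the list (-3.96) and was not set apart, standing at -8.31 from HBC4 and 0.39 from MKN74. After quantile normalization 4 WNT genes were set apart higher, and without probe sets of x or s suffix 2 were lower.

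Among 48 receptor tyrosine kinases and ligands 5 were set apart higher (against 6.45% of all genes) and 4 lower (against 3.45%), with a median of 0.06. ERBB3, the kinase-poor partner of ERBB2, read -3.56, -3.63, -4.05 and -4.08 in PC-3, 0.31, 0.30, -0.30 and -0.38 in HBC4, and 0.85, 0.77, 0.87 and 0.72 in MKN74. ERBB2 read -1.11, -1.13, -1.26 and -1.14 in PC-3, 0.28, 0.56, 0.32 and 0.33 in HBC4, and 0.01, -0.03, 0.08 and -0.01 in MKN74. Both were lowest in PC-3 with no overlap, at -4.22 (SE 0.10, adjusted p = 1.41e-11) and -1.35 (SE 0.07, adjusted p = 1.1e-08). EGFR read -0.33, -0.17, -0.30 and -0.33 in PC-3, 0.17, -0.41, 0.27 and -0.59 in HBC4, and 1.60, 1.65, 1.45 and 1.47 in MKN74, so PC-3 and HBC4 overlapped and the gene was not set apart. The ligands VEGFC (5.07) and HGF (3.77) and the receptors EPHA7 (4.34) and AXL (4.09) were higher, and FGFR2 (-4.61) and EPHA1 (-1.94) lower. The 4 lower genes became 2 with the probe sets of a gene averaged, where FGFR2 stood at -1.15. Of 23 YAP and TEAD genes, CCN2 (3.70), AJUBA (3.46), CCN1 (2.12) and AXL were set apart higher, and F3, AMOTL1 (-1.65) and TEAD4 (-1.50) lower; the 3 lower became 1 with probe sets averaged. Of 19 Notch genes the target HEY1 was set apart higher (4.76) and NOTCH3 (-2.76) and DTX4 (-3.08) lower, with a median of -0.22.

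Genes of cell division were lower in PC-3 throughout the list. All 26 measured members passed the threshold as lower (against 34.6% of all genes), 14 were set apart lower, none higher, and the median was -1.91, with a range from -2.96 to -0.54. TOP2A, the topoisomerase of dividing cells, read -2.82, -2.67, -2.38 and -2.40 in PC-3, 0.06, 0.52, 0.70 and 0.77 in HBC4, and -0.29, -0.06, 0.17 and 0.40 in MKN74. MKI67, the proliferation antigen, read -2.53, -2.18, -1.97 and -2.13 in PC-3, -0.40, -0.08, 0.08 and 0.08 in HBC4, and 0.25, 0.59, 0.85 and 1.10 in MKN74. On every treatment PC-3 lay below both lines, with differences of -2.85 (SE 0.07, adjusted p = 1.58e-11) and -2.51 (SE 0.08, adjusted p = 1.02e-10). The mitotic kinase NEK2 (-2.96), the kinesin KIF23 (-2.87), ANLN, anillin (-2.74), and the cyclin CCNB2 (-2.65) were among the other members set apart lower.

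Of 27 measured brakes and cyclins of the cell cycle, CDKN2A (3.84) and CDKN2B (2.43), both inhibitors of CDK4 and CDK6, were set apart higher and 5 lower, with a median of -0.81. CDKN2A read 3.01, 3.06, 3.02 and 3.29 in PC-3, -0.05, -0.18, 0.22 and 0.05 in HBC4, and -1.24, -1.57, -1.55 and -1.64 in MKN74, with no overlap between lines. The lower genes were MYCN (-4.80), CDK6 (-2.96), CCNA2 (-2.75), CCNE1 (-1.81) and CCNE2 (-1.56). MYCN rested on a single probe set: the other 9 lay between -0.18 and 0.14. With the probe sets of a gene averaged, 1 gene of these 5 was set apart lower. MYC did not pass the threshold (0.17, adjusted p = 0.112). CDKN1A, the inhibitor p21, stood at -0.81 and was not set apart.

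Of 26 hypoxia and glycolysis genes, the carbonic anhydrase CA12 (6.60), PGK1 (4.82), ENO2 (2.40) and PFKFB4 (1.91) were set apart higher and EGLN3, an oxygen sensor (-3.31), lower, with a median of 0.17. The other PGK1 probe sets gave 0.55 to 1.53. Of 32 NRF2 and xenobiotic enzymes, GSTM3 (3.19) and ALDH3A1 (2.88) were higher and CYP1A1 (-2.09) and GCLM (-2.02) lower, with a median of -0.03. Of 22 genes of the PI3K list, IRS1 (2.75) and PHLPP1 (2.24) were higher and IRS2 (-2.18) lower, with a median of -0.02. Of 22 S100 and annexin genes, ANXA10, S100A2 (4.96) and ANXA6 (4.19) were higher and S100A7 (-4.93), S100A8 (-4.40) and S100A14 (-3.81) lower, with a median of -0.36. Of 21 MHC genes HLA-DRB1 (-3.84), which has close paralogs, alone was set apart, and CD74 (-2.84) and HLA-DRA (-2.96) differed from HBC4, by -5.55 and -5.78, and from MKN74 by only -0.14 and -0.15. Of 27 interferon-stimulated genes OAS2 (2.46) and OAS1 (1.82) were set apart higher, and neither was after quantile normalization or with probe sets averaged. Of 19 cancer-testis antigens none was set apart, and MAGEB2 (-3.72), MAGEA12 (-3.41) and MAGEA1 (-2.71) marked MKN74, from which PC-3 stood at -7.46, -6.83 and -5.55. Of 10 HOXB genes HOXB13 was set apart higher and HOXB7 (-4.54) lower, and of 9 HOXC and 8 HOXD genes none was, with HOXC10 at -2.69.

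Reference genes were not free of differences. Of 15 measured housekeeping genes 2 were set apart higher (against 6.45% of all genes), none lower (against 3.45%) and 13 were not. The threshold was passed by 3 as higher (against 29.1%) and by 7 as lower (against 34.6%), and the median was -0.17. ACTB read -0.25, -0.22, -0.21 and -0.23 in PC-3, 0.14, 0.08, 0.12 and 0.11 in HBC4, and -0.00, 0.00, 0.14 and -0.00 in MKN74. GAPDH read -0.05, -0.06, -0.01 and -0.04 in PC-3, 0.13, 0.13, 0.16 and 0.13 in HBC4, and 0.01, -0.09, -0.03 and 0.01 in MKN74. ACTB passed the threshold with a small difference (-0.30, SE 0.06, adjusted p = 0.0011), and GAPDH did not pass (-0.10, adjusted p = 0.188). PGK1 and EEF1A1 (1.84) were the 2 set apart, both by a probe set larger than their others. Their values are therefore uncertain, and why the probe sets of these genes differ was not tested.

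**Figure D4:**
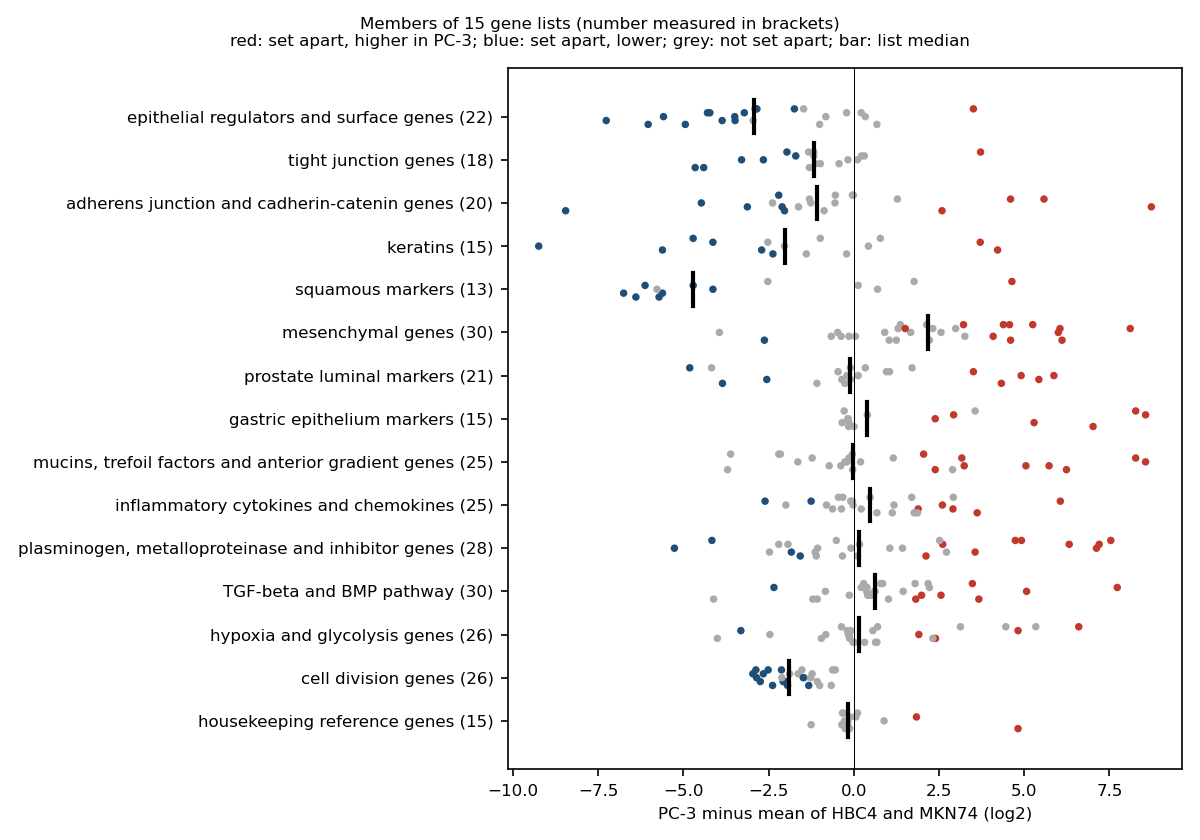
PC-3 minus the mean of HBC4 and MKN74 (x axis, log2) for each measured member of 15 gene lists, coloured by whether the gene was set apart, with a black bar at the list median. The epithelial, squamous and cell division lists have medians of -2.92, -4.71 and -1.91, the mesenchymal list 2.18 and the housekeeping list -0.17.

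Position along the chromosome was not used by the rule, and 10 runs of at least 4 neighbouring measured genes were set apart in the same direction, 9 of them higher. Over all genes 6.45% were set apart higher and 3.45% lower, and how many runs these shares alone would give was not computed. Genes not measured were skipped. The runs with PSMA3, FUT8 and ATXN1 reach 4 genes only by counting the antisense transcript of that gene. The lower run held 6 genes, MYCN, CYRIA, VSNL1, SMC6, GEN1 and KCNS3, with sizes from 1.65 to 5.51. MYCN belongs to it through the single probe set described above. VSNL1, a neuronal calcium sensor, was -5.51, KCNS3, a potassium channel subunit, -3.78, and SMC6, of the SMC5/6 complex, -1.65. Of the higher runs, 1 joined VCAN (2.99), HAPLN1 (6.59), EDIL3 (9.97) and COX7C (1.23), and the first 2 code for a matrix proteoglycan and the protein that links it to hyaluronan. Another joined NIN, PYGL, TRIM9, TMX1 and FRMD6, of which TRIM9, a neuronal ubiquitin ligase, was 6.61 higher. VCL, vinculin, stood in a run with AP3M1 (2.77), ADK (1.37) and KAT6B (2.65).

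Whether the PC-3 difference itself changed with treatment was asked by comparing it between the 2 G4 arrays and the 2 control arrays of each line, which count as replicates of a class. Of 41091 probe sets 130 (0.316%) passed an adjusted p of 0.05, 66 with a more positive and 64 with a more negative PC-3 difference under G4 oligonucleotides, and 4613 had an unadjusted p under 0.05. Counted by gene on the shown probe set, 87 passed, of 19775 genes compared. Of the genes set apart, 17 of 1275 higher and 6 of 683 lower passed, both larger shares than over all genes. Whether these shares differ beyond chance was not tested. The 5 genes with the smallest p-values were not set apart in every treatment. HOTTIP, a long noncoding RNA, read 2.63 and 2.88 in the PC-3 controls and 0.46 and 0.38 under (uuaggg)4 and AS1411, while the other 8 arrays lay between -0.44 and 0.23. Its PC-3 difference was 2.75 in controls and 0.67 under G4, a change of -2.08 (adjusted p = 0.000271). THEMIS2, a signalling adaptor, changed by -1.75, from 2.72 to 0.97. HSPA6, an inducible heat shock protein, changed by 2.28, from -1.68 to 0.59, and PLEKHM1, a lysosomal adaptor, by 1.94, from 0.09 to 2.03. BST2, tetherin, an interferon-induced membrane protein, changed by -2.45, from -0.63 to -3.07.

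CXCR4, the receptor for CXCL12, was set apart higher in every treatment and also passed this test; it was chosen after its values were seen. It read 5.46, 5.74, 7.04 and 7.45 in PC-3 and between -0.37 and 0.08 elsewhere, so that PC-3 was high on all 4 arrays and higher on the 2 G4 arrays. The PC-3 difference was 6.56 over all treatments and 1.66 larger under G4 (adjusted p = 0.0196). FABP4, a fatty acid carrier chosen likewise, showed the reverse situation, in which a reference line moved: MKN74 read -0.79, -0.84, 1.44 and 0.79, PC-3 stayed between 4.27 and 4.49 and HBC4 between -5.51 and -4.69. Its change of -0.92 did not pass (adjusted p = 0.221). The number of calls depended on single arrays. Without the PC-3 arrays in turn it was 38, 59, 90 and 29, without those of HBC4 64, 116, 107 and 67, and without those of MKN74 44, 51, 79 and 79.

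**Figure D5:**
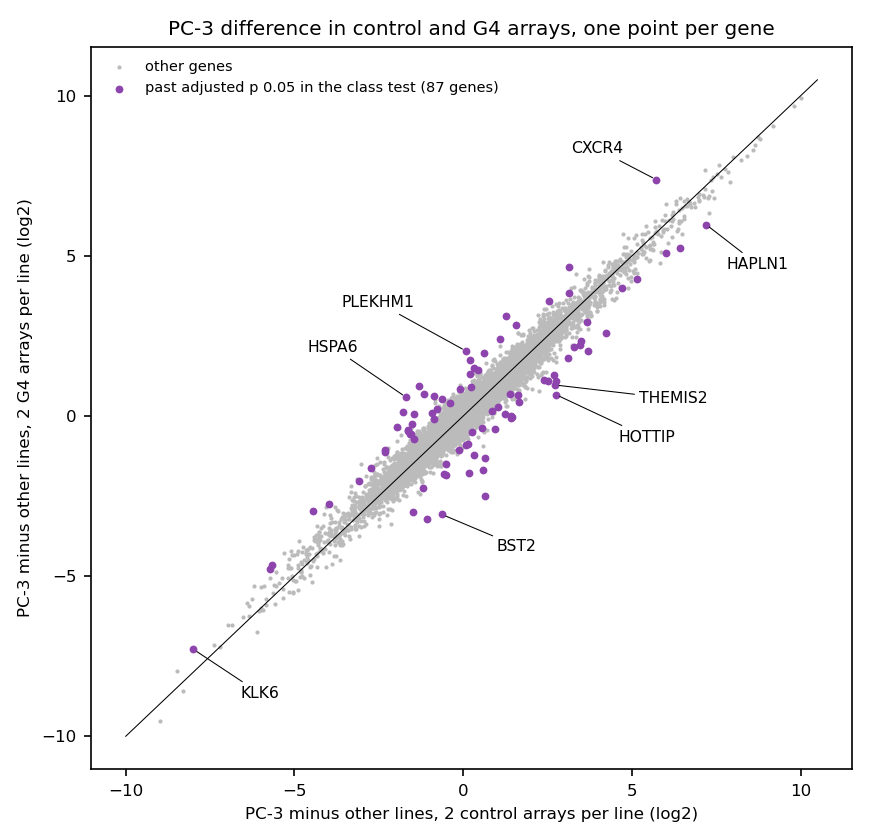
PC-3 minus the mean of HBC4 and MKN74 in the 2 control arrays per line (x axis, log2) against the same in the 2 G4 arrays per line (y axis, log2), with a point for each of 19740 genes, the line of equality, and purple for the 87 genes whose shown probe set passed the class test. Most genes follow the line; HOTTIP (2.75 and 0.67) and BST2 (-0.63 and -3.07) lie below it, and HSPA6 (-1.68 and 0.59) and PLEKHM1 (0.09 and 2.03) above.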

How the data were processed

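The deposited values are log2 expression of 12 Affymetrix arrays, and per the submitters' processing notes RMA was used (version not given in the sources used here). Each probe set has a median of 0 over the arrays (within 5e-07), so the deposited values are centred, in a way no source here describes. Base 2 was taken from the values, which reach 11.2. Centring keeps differences but removes level and detection, and the number of arrays limits the precision. Per the labels' protocols, RNA was extracted on columns and labelled from 100 ng.

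Left out were 62 array controls, 1801 probe sets naming several genes and 11721 unnamed here. Names come from the platform annotation, of which 41037 probe sets matched RefSeq gene identifiers. List members without a probe set naming 1 gene were not analysed here.

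The linear model held line and treatment for all 12 arrays (limma 3.58.1 under R 4.3.3, with eBayes and no intensity trend), 6 residual and 5.22 prior degrees of freedom, and Benjamini-Hochberg adjustment over 41091 probe sets. Same-treatment arrays of different lines deviated together, with correlations of 0.115 to 0.272, all over 0.1, and treatment was kept as the block. The arrays of a line stand for replicates although their treatments differ, so p-values measure only the spread between these arrays. The class test used line and class per line. On simulated data with the real residual spread, 95 of 100 probe sets shifted by 1 and 100 of 100 shifted by 2 passed the threshold. Only these probe sets were shifted, whereas 57% passed in the data, so the setting differs. The set-apart rule was not simulated.

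The members and lists were chosen with earlier results of these data known, so lists are described by counts and medians without a test. Named genes were the 15 largest set apart in each direction, up to 5 set apart and 3 other members per direction and list, preset lineage and reference genes, the 5 smallest class test p-values and genes in runs; PRAC1, CXCR4, FABP4 and other list members were chosen after their values were seen. Alternatives covered normalization, probe set choice, limits, the block and leaving out each array.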

Additional observations from a re-analysis of the deposited data

Results flagged for a closer look

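In 3 sets of 4 arrays of a line, a single array lay far from the other 3 for a gene described above, which chance alone gives in about 1 of 20 sets. Every line of each gene with printed array values was looked at, so chance alone gives some such sets. The 4 arrays of a set also differ in treatment. TFF2 read -0.71 on the MKN74 array with AS1411 and -0.57 to -0.54 on the other 3. EPCAM read 0.20 on the MKN74 array with AS1411 and -0.01 to 0.00 on the others. ACTB read 0.14 on the MKN74 array with (uuaggg)4 and -0.00 to 0.00 on the others. All 3 gaps are small beside the PC-3 differences of these genes, except for ACTB, whose difference is -0.30.

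For 11 genes named above, of 87 in all, the PC-3 difference under G4 oligonucleotides differed from that under controls by limma's test of the difference itself, adjusted over all probe sets. The change was -2.45 for BST2 (adjusted p = 0.00176), -2.08 for HOTTIP (adjusted p = 0.000271), 2.28 for HSPA6 (adjusted p = 0.00158), 1.94 for PLEKHM1 (adjusted p = 0.00176) and -1.75 for THEMIS2 (adjusted p = 0.000959). KLK6, set apart lower in PC-3 in every treatment, changed by 0.71 (adjusted p = 0.0345): PC-3 stayed between -6.85 and -6.73, while HBC4 went from 1.97 and 1.81 to 1.56 and 1.45 and MKN74 from 0.42 and 0.41 to -0.41 and -0.47. Among the other 5, the change was 1.66 for CXCR4 (adjusted p = 0.0196) and -1.22 for HAPLN1 (adjusted p = 0.00357), both set apart higher. It was 0.96 for CTSV (adjusted p = 0.0241) and 1.08 for PMEPA1 (adjusted p = 0.0376), both set apart lower, and 1.48 for MUC16 (adjusted p = 0.0406), which was not set apart.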

How the results depend on the processing

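Of 348 named genes, 346 kept their direction and their side of the threshold without the replicate block, 346 after quantile normalization, 342 with the probe sets of a gene averaged and 313 with limma's treat, where 35 no longer passed. Without probe sets of x or s suffix 285 could be compared, of which 273 kept both, 8 no longer passed and 3 reversed. Without the replicate block 22945 probe sets passed, and the counts of genes set apart stayed 1275 higher and 683 lower, as the distance limit does not use the block. These counts were 965 and 673 after quantile normalization, 890 and 468 with probe sets averaged, and 1025 and 498 without probe sets of x or s suffix. Several probe sets were present for 885 genes set apart higher and 459 lower. All had the same sign in 664 and 410 of these. Fewer units were tested with probe sets averaged, where 12221 genes passed against the mean of both lines, 11137 against HBC4 and 12042 against MKN74, and without probe sets of x or s suffix, where 14997, 13436 and 14952 passed. With limma's treat, which asks for a difference beyond a minimum size, 5003, 4884 and 6123 passed. A minimum distance of 0.58 gave 2018 genes set apart higher and 1278 lower, and a distance of 2 gave 527 and 223. Without 1 array, 21175 to 23055 probe sets passed against the mean, 19734 to 21433 against HBC4 and 21723 to 23485 against MKN74, and 1291 to 1342 genes were set apart higher and 695 to 751 lower, since 1 treatment had fewer arrays to compare. The class test, whose alternatives were chosen after seeing the data, gave 69 calls after quantile normalization and 29 to 116 without 1 array; the cause was not tested.

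Signs reversed for ANPEP (0.43) after quantile normalization (-0.02) and without probe sets of x or s suffix (-0.12), and in the latter also for COL3A1 (3.30 to -0.29) and TSC22D3 (1.99 to -0.24). There CTNNA1 was -0.47, VGLL1 -0.17, MYCN -0.18 and FGFR2 -0.37, each from another probe set than the one shown. Among lists, single classes of treatment moved some counts: with G4 arrays only, 3 interferon-stimulated genes were set apart lower (0 over all arrays), 7 receptor tyrosine kinase genes lower (4) and 3 androgen response genes higher (1), and with control arrays only, 6 YAP and TEAD genes lower (3). Without probe sets of x or s suffix the counts went to 2 for receptor tyrosine kinase genes lower, 2 for integrin and laminin genes higher (4), and 0 for epithelial regulators higher, MHC genes lower and HOXB genes lower (1 each). Signal over background cannot be judged in centred values, so a gene near background in all lines cannot be told from one that is expressed alike.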

Other observations

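Gene families outside the lists above also separated PC-3; they were chosen after their values were seen, and carry no test as families. The BEX, TCEAL and ARMCX families, small adaptor and mitochondrial proteins that are best known from neurons and whose genes lie together on the long arm of chromosome X, had 10 members set apart higher (6.45% of all genes were) and none lower, while 2 BEX and 2 ARMCX genes passed the threshold as lower. Of 5 measured BEX genes 3 were set apart higher, with BEX3 at 7.0, BEX4 at 4.37 and BEX2 at 3.51. Of 7 TCEAL genes 4 were, with TCEAL8 at 6.30 and TCEAL9 at 6.14, and of 6 ARMCX genes 3 were, with ARMCX3 at 6.84. ARMCX6 stood at 6.50 on the shown probe set, while its other probe set gave -0.08. Of 15 measured protocadherin beta genes, adhesion molecules of neurons, 4 were set apart higher (against 6.45% of all genes) and none lower (against 3.45%). Among the 15, 10 passed as higher (against 29.1%) and 3 as lower (against 34.6%), with a median of 0.38.

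The kallikreins, secreted serine proteases of skin and glands, went the other way. Of 14 measured, 11 passed the threshold as lower in PC-3 (34.6% of all genes did) and none as higher, 4 were set apart lower (3.45% of all genes were), and the median was -0.68. The 4 were KLK5, KLK6, KLK8 and KLK10, of which KLK6 stood at -7.64, KLK8 at -6.14 and KLK5 at -4.69.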
